A study of Sus scrofa with 9 samples.

Results

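The matrix proteases and their inhibitors described here are the enzymes that cut extracellular matrix and cell surface proteins, the lysosomal cathepsins, and the inhibitors of both. They were chosen by name: table rows whose identifier matched a pig symbol of a matrix metalloproteinase (MMP), an ADAM, ADAMTS or ADAMTSL gene, a TIMP, a serpin, a lettered cathepsin (CTSA, CTSB and so on) or a cystatin (CST). SERPINH1, a collagen chaperone, was left out. The choice gave 85 of the 19643 rows of the table, each with its own symbol: 16 MMPs, 1 TIMP, 17 ADAMs, 16 ADAMTS, 4 ADAMTSL, 10 cathepsins, 3 cystatins and 18 serpins. Of these, 53 were tested because their mean over the 9 libraries was 1 FPKM or more. Symbols were found for only 56.91% of rows, and TIMP2, TIMP3, TIMP4, CTSD, CTSK, CST3, SERPINB6 and SERPINA1 were not matched and are not analysed here. Total RNA was sequenced from the longissimus dorsi, the long back muscle, of embryonic pigs. The groups were Tibetan and Wujin pigs, both labelled as indigenous Chinese breeds, and Large White pigs, with 3 libraries each. No treatment, sex or gestational day is given for any group, and the labels do not state whether each library stands for its own animal. The p-values therefore cover only the spread among these 9 libraries, which may be technical. Of the Wujin libraries, 1 carries a number in the table and the other 2 share a header, so they are called Wujin 1, Wujin a and Wujin b, and values are given in that order.

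Metalloproteinases of the MMP family are made as inactive precursors and cut collagens, gelatin and proteoglycans once their propeptide is removed; TIMPs bind and block the active enzymes. ADAMs are membrane proteins, several of which shed growth factors and receptors from the cell surface, while the secreted ADAMTS enzymes process procollagens and cut large proteoglycans such as versican. Cathepsins act mainly in lysosomes and are held in check by cystatins, and serpins block serine proteases such as the plasminogen activators. In growing muscle these enzymes are known for remodelling the connective tissue around fibres and for opening the matrix to migrating and fusing myoblasts.

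Values are FPKM, fragments scaled by transcript length and library size, which allow levels to be compared between genes. Relative sequencing depth ranged from 1 to 1.22 times that of Large White 1, and how many fragments lie behind a value is unknown. The Tibetan libraries stood apart from the others over the whole table: the 10 highest rows took 32.6% to 40.8% of their FPKM total, against 22.3% to 22.8% for Wujin and 18.8% to 25.0% for Large White. The median fitted log2 change of all 13106 tested rows was −0.77 for Tibetan minus Large White, −0.55 for Tibetan minus Wujin and −0.20 for Wujin minus Large White. For this reason each member's change is also given as a relative log2 change, which is its fitted log2 change minus that median, and the main counts are repeated after median-ratio scaling of the libraries, which brings the 3 medians to −0.011, −0.0036 and 0.00041. All 11 matched muscle fibre markers reached at least 1 FPKM in each breed. They summed to 37520 to 81541 FPKM in the Tibetan, 29232 to 34669 in the Wujin and 19669 to 25225 in the Large White libraries. The lowest Tibetan sum was that of Tibetan 2, in which 1 of the fibre markers, ACTA1, is listed at 0. The fibre genes did not move as a block. In the Tibetan against the Large White libraries 6 were called higher, 3 lower and 2 neither way, where 13% and 63.2% of all rows were called. MYBPC2, a myosin binding protein of fast fibres, was at 1903, 1316 and 2290.0 FPKM in the Tibetan and 2.89, 2.18 and 2.38 in the Large White libraries. The embryonic myosin MYH3 was at 68.9, 52.6 and 66.2 and 1933, 1527 and 1803. The 7 matched fibroblast markers summed to 335 to 364 FPKM in the Tibetan, 3094 to 5610.3 for Wujin and 5361 to 5999 for Large White, and all 7 were called lower in the Tibetan libraries than in either other breed, also after scaling. The part of these differences in the results below was not tested, and in bulk muscle fewer cells of a type cannot be told apart from less RNA per cell. An exact 0 in the table can be a failed estimate, since the skeletal actin gene ACTA1 is listed at 0 in Tibetan 2, so members with a 0 are given library by library.

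On FPKM as deposited, the Tibetan libraries had a lower summed level of matrix proteases and inhibitors than the other breeds, and a different mixture of them. Summed over the 85 rows, the level was 639 ± 62.6 FPKM in the Tibetan libraries (SD, n = 3), 1501 ± 85.8 in Wujin and 1461 ± 34.1 in Large White. The lowest Wujin or Large White library, at 1426, lay above the highest Tibetan library, at 689. The MMP sum showed the widest gap, at 63.4 ± 3.09 FPKM in the Tibetan against 503 ± 61.3 in Wujin and 464 ± 7.70 in Large White libraries. The cathepsin sum differed far less, at 222 ± 30.4, 258 ± 6.06 and 294 ± 9.63. These sums were not rescaled. Median-ratio scaling divides each library by a factor, which was 0.7182, 0.6308 and 0.6943 for the Tibetan libraries. The factors were 0.992, 1.203 and 1.23 for the Wujin and 1.313, 1.335 and 1.372 for the Large White libraries. The size of the gaps in the sums therefore rests on the scaling. So does the order of the Tibetan and Large White breeds for the cathepsin, cystatin and serpin sums. The separation of the totals rests on it too, since division by these factors would no longer leave Tibetan 2 below Large White 3. The largest share of the sum was taken by MMPs in the Wujin and Large White libraries and by cathepsins in the Tibetan libraries. The gene of highest mean level was MMP2 in the Wujin and Large White breeds, at 312 ± 50.9 and 299 ± 11.1 FPKM, and the cystatin CSTB in the Tibetan breed, at 86.1 ± 15.7.

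**Figure D1:**
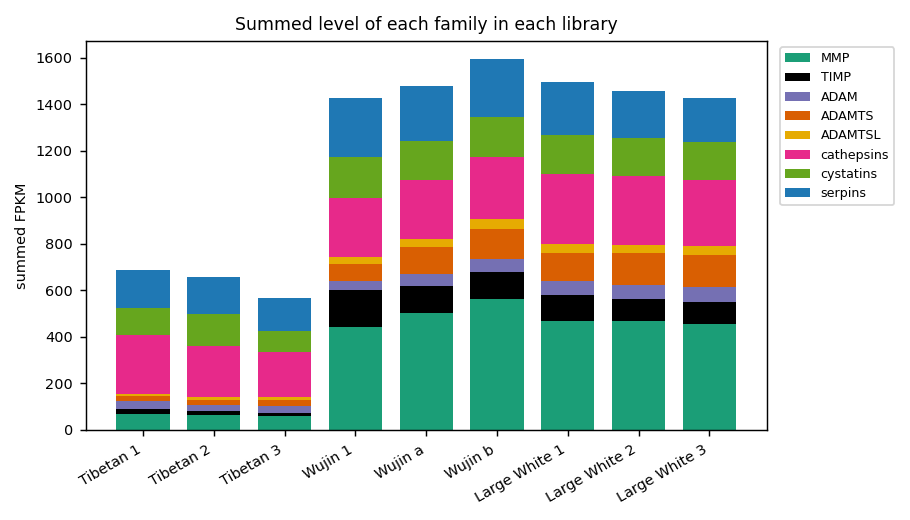
Summed FPKM, as deposited, of the 8 families in each of the 9 libraries, stacked (1 bar per library, starting at 0). The 3 Tibetan bars reach 569 to 689 FPKM, and the lowest of the other 6 bars is 1426; the green MMP block is 60.8 to 66.8 in the Tibetan and 456 to 470.4 in the Large White libraries.

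In the comparison of Tibetan with Large White, 37 of the 53 tested members were called lower in the Tibetan libraries, 6 higher and 10 neither way (limma on log2(FPKM + 1), Benjamini-Hochberg adjusted p under 0.05 over all rows). Over all 13106 rows tested, 63.2% were called lower and 13% higher, so as deposited the members' split (69.8% and 11.3%) lay near the background. The members' median log2 change was −1.14, or −0.37 relative to the median of all rows. After median-ratio scaling the split was 26 lower (49.1%) and 17 higher (32.1%), where 33% and 32.4% of all rows were called. After quantile normalization it was 27 lower (50.9%) and 13 higher (24.5%), where 31.4% and 31.7% were called. Under either scaling the share of members called lower thus lay above that of all rows. Libraries of the 2 breeds did not overlap for 38 members lower in the Tibetan breed and for 6 higher, against 66.5% and 14.1% of all rows. The families differed in how they split. ADAMTS members were lower in 13 of 15 cases as deposited and in 11 of 15 under either scaling, whereas of 9 cathepsins 3 were lower and 2 higher as deposited, 2 lower and 6 higher after median-ratio scaling, and 3 lower and 4 higher after quantile normalization. The plot of relative changes by family shows this spread for each gene.

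**Figure D2:**
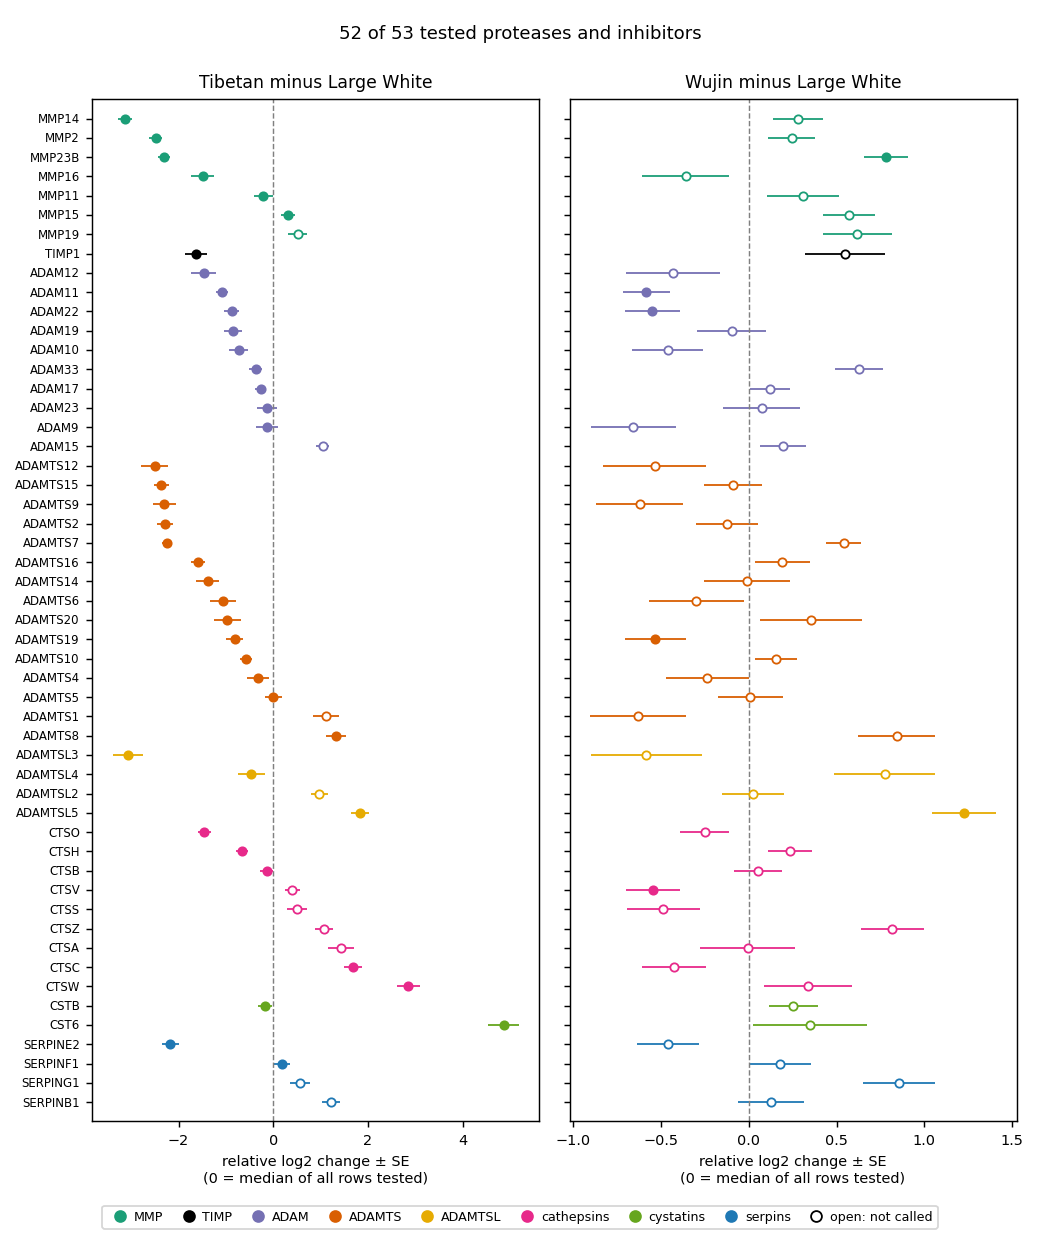
Relative log2 change (fitted change minus the median of all rows tested, FPKM as deposited) with its SE for 52 of the 53 tested members, sorted within family; left, Tibetan minus Large White, right, Wujin minus Large White on its own scale. Filled points were called at adjusted p under 0.05, open points were not; the left panel runs from −3.13 for MMP14 to 4.87 for CST6, and in the right panel only 6 points are filled.

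The 3 MMPs of highest mean level, MMP2, MMP14 and MMP23B, were all far lower in the Tibetan libraries than in the others. MMP2, the gelatinase that cuts denatured collagen and basement membrane, was at 32.4, 29.6 and 29.2 FPKM in Tibetan, 260.0, 316 and 362 in Wujin and 309, 303 and 287 in Large White libraries. The 3 Tibetan libraries lay together and far below the other 6, and the Large White mean was 9.86 times the Tibetan mean, a log2 change of −3.26 ± 0.13 (SE; limma adjusted p = 1.21e-07). MMP14, the membrane-bound enzyme that activates the MMP2 precursor, was at 6.71, 5.23 and 4.70 FPKM in Tibetan, 89.5, 103 and 115 in Wujin and 93.8, 97.7 and 97.5 in Large White libraries. The Large White mean of MMP14 was 17.4 times the Tibetan mean (limma adjusted p = 7.47e-08), and its relative log2 change of −3.13 was the lowest of the 53 members. MMP23B, an MMP with a membrane anchor at its amino end, was at 1.69, 2.41 and 1.72 FPKM in Tibetan, 39.7, 33.7 and 34.5 in Wujin and 23.9, 23.4 and 23.6 in Large White libraries, so the 3 breeds did not overlap with each other. MMP16, another membrane-type enzyme, was at 0.0213, 0.0774 and 0.103 FPKM in the Tibetan and 3.59, 4.35 and 4.48 in the Large White libraries (log2 change −2.26 ± 0.25, limma adjusted p = 3.15e-05). These 4 genes stayed lower in the Tibetan libraries under both scalings. Together MMP2 and MMP14 made up 56.6 ± 1.64% of the MMP sum in the Tibetan libraries, 82.3 ± 2.79% in Wujin and 85.3 ± 0.726% in the Large White.

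The remaining tested MMPs differed less. MMP15, a membrane-type enzyme related to MMP14, was at 14.9, 9.995 and 12.96 FPKM in Tibetan, 24.1, 23.9 and 21.2 in Wujin and 16.6, 17.05 and 19.01 in Large White libraries. It was called lower in the Tibetan than in the Large White libraries as deposited (−0.46 ± 0.15, limma adjusted p = 0.0168) and higher after median-ratio scaling (0.45), with 0.15 and no call after quantile normalization, so its direction rests on the scaling, and without Large White 3 it was not called (−0.41). MMP11, stromelysin-3, was at 6.35, 13.1 and 9.70 FPKM in the Tibetan and 20.02, 18.3 and 19.9 in the Large White libraries, and was called lower as deposited (limma adjusted p = 0.00185) but not after scaling (−0.071). MMP19 was at 3.54, 1.76 and 1.96 and 3.15, 2.62 and 3.21 FPKM, with overlapping libraries, and was not called in this comparison as deposited (limma adjusted p = 0.260), although it was called higher in the Tibetan libraries after median-ratio scaling (0.45) and lower without Tibetan 1 (−0.48). MMP9, the other gelatinase, stayed at or below 0.146 FPKM in every library. The collagenases MMP1 and MMP13 and the matrilysin MMP7 were likewise below 1 FPKM throughout.

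TIMP1, an inhibitor of many soluble MMPs and the only TIMP among the matched rows, was lower in the Tibetan libraries. It stood at 24.9, 18.9 and 12.7 FPKM in Tibetan, 159.6, 115 and 116 in Wujin and 111, 96.6 and 94.1 in Large White libraries. No Tibetan library reached the level of any other library, and the log2 change of Tibetan minus Large White was −2.40 ± 0.23 (SE; limma adjusted p = 1.27e-05), also called after both scalings (−1.45 and −2.04). Since FPKM is per length, its level can be set beside the summed MMPs. The ratio was 0.294 ± 0.0819 in the Tibetan, 0.265 ± 0.0845 in Wujin and 0.217 ± 0.0171 in Large White libraries (SD, n = 3), and the ranges of the 3 breeds overlapped. Without MMP2 the ratios were 0.566, 0.689 and 0.612. No difference between breeds in this ratio was therefore larger than the spread between libraries.

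**Figure D3:**
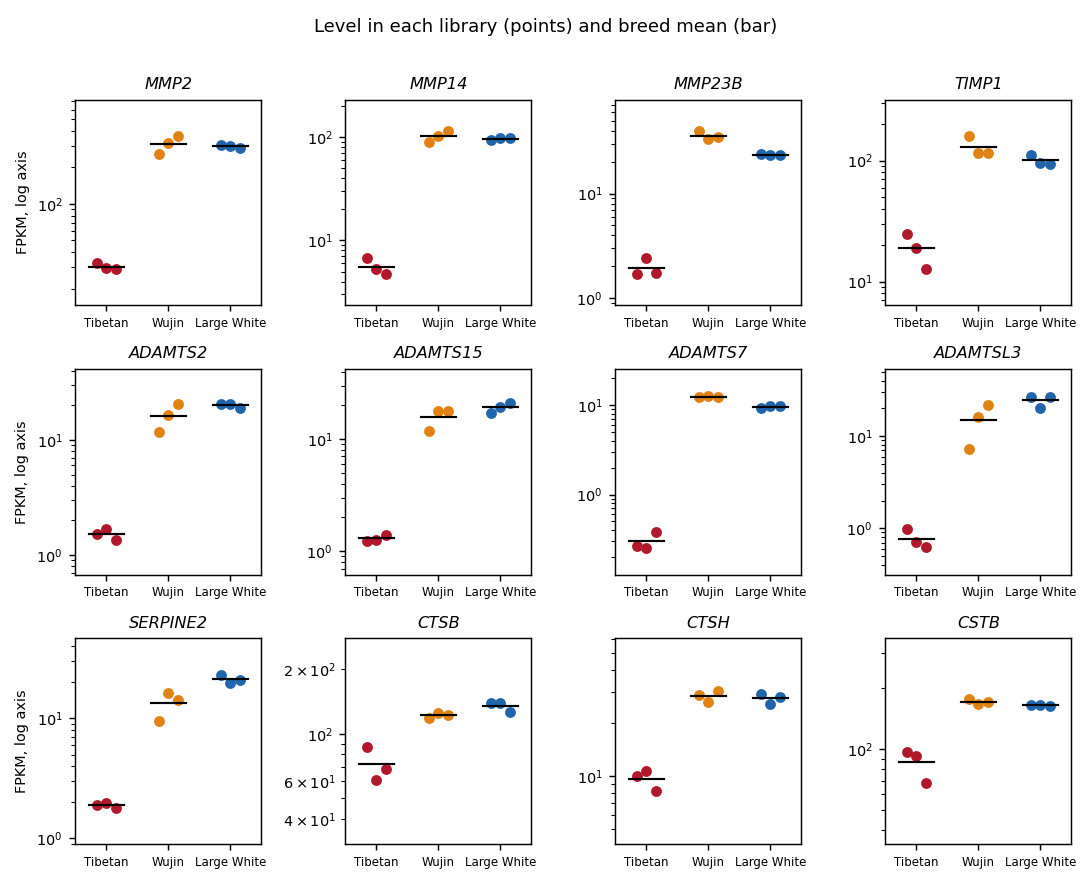
FPKM of 12 members in each library (points; log axis, with its own range in each panel) and the breed mean (bar; n = 3). The 3 Tibetan points lie below all other points in every panel, by the widest margin for ADAMTS7, MMP14 and MMP23B and the narrowest for CTSB and CSTB.

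Most ADAMTS enzymes were lower in the Tibetan libraries. ADAMTS2, which trims the amino propeptide from fibrillar procollagens, was at 1.53, 1.67 and 1.35 FPKM in Tibetan, 11.7, 16.4 and 20.4 in Wujin and 20.3, 20.6 and 18.95 in Large White libraries. Its Large White mean was 13.2 times the Tibetan mean (log2 change −3.06 ± 0.18, limma adjusted p = 6.68e-07). ADAMTS14, the related procollagen enzyme, was at 0.0446, 0.0902 and 0.0540 FPKM in the Tibetan and 2.48, 4.16 and 4.95 in the Large White libraries (limma adjusted p = 4.07e-05). Both procollagen enzymes were thus called lower, and both remained so after scaling (−2.30 and −1.80). ADAMTS7 and ADAMTS12, a related pair that cut cartilage oligomeric matrix protein, were also low. ADAMTS7 was at 0.268, 0.253 and 0.384 FPKM in Tibetan, 12.2, 12.7 and 12.4 in Wujin and 9.22, 9.85 and 9.71 in Large White libraries, with breeds that did not overlap in any pair. ADAMTS12 was at 0.480, 0.456 and 0.552 FPKM in Tibetan, 3.98, 10.002 and 11.2 in Wujin and 11.99, 14.7 and 14.1 in Large White libraries. For ADAMTS12 the Wujin libraries spread widely, with Wujin 1 well below the other 2, but all lay above the Tibetan libraries.

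Of 7 further ADAMTS enzymes, ADAMTS15, ADAMTS9 and ADAMTS20 were lower in the Tibetan libraries whatever the scaling, and ADAMTS1, ADAMTS8, ADAMTS4 and ADAMTS5 were not. ADAMTS15 was at 1.23, 1.26 and 1.40 FPKM in Tibetan, 11.7, 17.8 and 17.9 in Wujin and 17.2, 19.5 and 21.04 in Large White libraries (−3.14 ± 0.17 for Tibetan minus Large White, limma adjusted p = 4.03e-07). ADAMTS9 was at 1.67, 1.41 and 2.24 FPKM in Tibetan, 7.78, 14.1 and 16.2 in Wujin and 19.2, 22.2 and 25.7 in Large White libraries. ADAMTS20, which cuts versican, was at 1.33, 2.44 and 1.23, 5.10, 9.77 and 13.3 and 7.80, 7.37 and 8.13 FPKM in the same order of breeds. All 3 genes were called lower in the Tibetan libraries than in either other breed, under each scaling. By contrast ADAMTS1, which also cuts versican and aggrecan, was at 4.67, 6.41 and 9.73 FPKM in Tibetan, 1.64, 2.53 and 3.21 in Wujin and 3.94, 6.92 and 4.61 in Large White libraries. Between Tibetan and Large White it was not called as deposited (limma adjusted p = 0.274) and was called higher in the Tibetan breed after median-ratio scaling (1.18) and quantile normalization (1.15). It was also higher in the Tibetan than in the Wujin libraries (1.17 ± 0.27, limma adjusted p = 0.00421). ADAMTS8 was at 8.004, 3.86 and 5.45 FPKM in Tibetan, 5.02, 6.03 and 7.10 in Wujin and 3.96, 3.40 and 3.10 in Large White libraries, and although limma called it higher in the Tibetan breed (adjusted p = 0.0428), Tibetan 2 lay below Large White 1. This call on FPKM as deposited was lost when any of 6 libraries was left out (Tibetan 1 or 3, Wujin a, or any Large White, 0.32 to 0.63). After median-ratio scaling (1.35) and quantile normalization (1.39), ADAMTS8 was called higher in the Tibetan than in the Large White breed. ADAMTS4 and ADAMTS5, the aggrecanases, were at 1.78 and 1.07 FPKM in the Tibetan and 4.84 and 2.51 in the Large White breed. Both were called lower as deposited and neither after median-ratio scaling (−0.38 and −0.17), and under quantile normalization the sign of ADAMTS5 turned (0.13). The genes of ADAMTS8 and ADAMTS15 are neighbours in the RefSeq annotation of assembly Sscrofa11.1, the only neighbouring pair in which both genes were tested, and their relative log2 changes were 1.32 and −2.36.

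Of the other ADAMTS members, ADAMTS10 and ADAMTS6, both linked to fibrillin microfibrils, had Tibetan means of 1.86 and 0.262 FPKM against 6.24 and 3.57 in Large White, and both were called lower under each scaling. ADAMTS16 was at 0.133, 0.340 and 0.196 FPKM in the Tibetan and 5.23, 4.66 and 6.01 in the Large White libraries (relative log2 change −1.59). ADAMTS19 was listed at 0 in Tibetan 1 and Tibetan 2 and at 0.104 FPKM in Tibetan 3, against 1.79, 2.96 and 1.73 in the Large White libraries. It passed the filter of 1 FPKM only through the Large White libraries, so its calls are not independent of the filter. The ADAMTSL proteins resemble the secreted ADAMTS enzymes but lack the protease domain, and they did not move together. ADAMTSL3 was at 0.985, 0.702 and 0.626 FPKM in Tibetan, 7.32, 16.1 and 21.7 in Wujin and 26.7, 20.3 and 26.8 in Large White libraries, with a relative log2 change of −3.07 between Tibetan and Large White (limma adjusted p = 5.37e-06). ADAMTSL5 was at 2.01, 1.69 and 2.81 FPKM in Tibetan, 2.33, 1.81 and 2.11 in Wujin and 0.472, 0.832 and 0.270 in Large White libraries, so that it was higher in both indigenous breeds than in Large White, where no library reached 1 FPKM (limma adjusted p = 6.03e-04 for the Tibetan breed). ADAMTSL4, which binds fibrillin, was at 3.37, 7.28 and 2.36 FPKM in Tibetan, 15.7, 14.5 and 19.5 in Wujin and 11.4, 11.2 and 9.57 in Large White libraries, called lower in the Tibetan than in the Large White libraries as deposited (limma adjusted p = 0.00341) but not after median-ratio scaling (−0.40). ADAMTSL2 was at 2.76, 1.85 and 2.21 FPKM on average in the Tibetan, Wujin and Large White breeds. It was called in no comparison as deposited, but without Tibetan 1 it was higher in the Tibetan libraries than in Large White (0.40) and Wujin (0.57).

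Of the 10 tested ADAMs, 9 were called lower in the Tibetan than in the Large White libraries and none higher, where 63.2% and 13% of all rows were called; after median-ratio scaling 6 were lower and 1, ADAM15, higher, where 33% and 32.4% were called. ADAM10, a sheddase which releases Notch and other receptors, was at 3.04, 2.49 and 3.59 FPKM in Tibetan, 4.16, 7.47 and 7.63 in Wujin and 9.89, 10.5 and 10.8 in Large White libraries, and remained lower in the Tibetan than in the Large White breed after scaling (−0.69). ADAM17, which releases tumour necrosis factor and ligands of the epidermal growth factor receptor, was at 3.62, 3.42 and 3.09 FPKM in Tibetan, 6.74, 8.32 and 7.66 in Wujin and 7.53, 8.16 and 8.32 in Large White libraries. Its change was −1.04 ± 0.12 as deposited (limma adjusted p = 3.37e-05), close to the median of all rows (relative −0.27), and it was called after neither scaling. ADAM9 was at 3.56, 3.52 and 3.41 FPKM in the Tibetan and 6.72, 8.12 and 7.49 in the Large White libraries, and likewise was called only as deposited (relative −0.13). ADAM15 was the ADAM whose level varied least between breeds, at 12.7, 9.49 and 12.2 FPKM in Tibetan, 9.81, 8.89 and 9.07 in Wujin and 9.90, 8.39 and 9.55 in Large White libraries. It was called in no comparison as deposited, although without Tibetan 2 it was higher in the Tibetan than in the Large White libraries (0.39), as it was after median-ratio scaling (1.16).

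ADAM12, meltrin alpha, is made by fusing myoblasts and by mesenchymal cells. It was listed at 0 in Tibetan 1 and at 0.177 and 0.0589 FPKM in the other Tibetan libraries, against 1.13, 2.70 and 3.58 in Wujin and 3.15, 5.04 and 4.31 in Large White. Every Tibetan library was below every other library (log2 change −2.25 ± 0.27 against Large White, limma adjusted p = 5.60e-05). ADAM19, meltrin beta, was at 2.55, 3.54 and 3.87 FPKM in Tibetan, 7.02, 11.8 and 11.1 in Wujin and 12.7, 11.1 and 12.9 in Large White libraries, and was called lower in the Tibetan breed under each scaling. ADAM33 was at 0.787, 1.05 and 0.962 FPKM in Tibetan, 4.31, 4.43 and 5.58 in Wujin and 3.16, 2.95 and 3.70 in Large White libraries, highest in the Wujin libraries. It was called lower in the Tibetan than in the Large White breed as deposited (−1.14 ± 0.14, limma adjusted p = 5.16e-05) and after median-ratio scaling (−0.53), but not after quantile normalization (−0.23). ADAM11, ADAM22 and ADAM23 lack the catalytic residues and are known mainly from nerve cells. ADAM11 was listed at 0 in 2 Tibetan libraries and at 0.0261 FPKM in the third, against 0.999, 1.30 and 1.07 in Wujin and 2.28, 2.67 and 3.02 in Large White. ADAM22 was at 0.172, 0.209 and 0.187 FPKM in Tibetan, 0.807, 1.56 and 1.39 in Wujin and 2.48, 2.78 and 2.97 in Large White libraries. ADAM23 was at 0.451, 0.718 and 0.372 FPKM in Tibetan, 0.802, 1.97 and 2.25 in Wujin and 1.66, 1.98 and 1.84 in Large White libraries. ADAM11 and ADAM22 were called lower in the Tibetan than in the Large White breed under each scaling, whereas ADAM23 was called lower as deposited (−0.91) and not after median-ratio scaling (−0.43) or quantile normalization (0.041). Beside these, the 6 matched Schwann cell and neuron markers summed to 10.2 to 17.2 FPKM in the Tibetan and 43.9 to 46.4 in the Large White libraries. Most of the Large White sum was the Schwann cell marker ERBB3, at 32.8, 32.6 and 31.2 FPKM. In the Tibetan libraries ERBB3 was at 0.213, 0.344 and 0.255. Of the 4 markers tested, 3 were called lower and 1 higher in the Tibetan libraries, as deposited and after median-ratio scaling. Over all rows tested, 63.2% were lower and 13% higher as deposited, and 33% and 32.4% after that scaling. The part of these markers in the ADAM11 and ADAM22 difference was not tested.

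The cathepsins divided by member. CTSB, the cysteine protease of highest level here, was at 87.1, 60.9 and 68.5 FPKM in Tibetan, 118, 125 and 123 in Wujin and 139.7, 139 and 127 in Large White libraries. It was called lower in the Tibetan libraries as deposited (−0.91 ± 0.14, limma adjusted p = 2.61e-04), and after quantile normalization (−0.81), while after median-ratio scaling the change was 0.057 and not called. CTSH, an aminopeptidase, was at 9.97, 10.7 and 8.19 FPKM in Tibetan, 28.9, 26.1 and 30.2 in Wujin and 29.05, 25.6 and 28.2 in Large White libraries, and CTSO at 0.165, 0.377 and 0.155 FPKM in the Tibetan and 5.15, 4.61 and 4.54 in the Large White libraries. Those 2 were called lower in the Tibetan breed under every scaling. CTSC, dipeptidyl peptidase I, which activates serine proteases of immune cell granules, ran the other way, at 19.1, 19.5 and 19.6 FPKM in Tibetan, 4.75, 8.004 and 5.74 in Wujin and 7.89, 11.3 and 10.7 in Large White libraries. The Tibetan libraries agreed closely with each other and lay above all others (0.91 ± 0.18 against Large White, limma adjusted p = 0.00141). CTSW, a cysteine protease of cytotoxic lymphocytes, was at 3.19, 5.69 and 2.30 FPKM in the Tibetan and 0.381, 0.0586 and 0.111 in the Wujin libraries, and in Large White it was listed at 0 in library 1, at 0.215 in library 2 and next to 0 in library 3. No fold is given for it, and limma called it higher in the Tibetan breed (adjusted p = 5.77e-05). CTSW passed the filter of 1 FPKM only through the Tibetan libraries, where it is high, so this call is not independent of the filter. The 10 matched lymphocyte markers summed to 4.10 to 7.20 FPKM in the Tibetan, 2.87 to 7.32 for Wujin and 3.34 to 5.69 for Large White, so the breeds overlapped. Of the 10, 7 stayed under 1 FPKM in all Tibetan libraries, among them granzyme GZMA, at 0.183, 0.220 and 0.109 there and listed at 0 in the other 6. Only 1 marker was tested. It was called in no comparison as deposited, and higher in the Tibetan than in either other breed after median-ratio scaling. The part of these cells in the CTSW result was not tested.

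CTSA, the carboxypeptidase that protects lysosomal galactosidase, was at 36.9, 15.2 and 22.9 FPKM in Tibetan, 9.98, 14.2 and 13.7 in Wujin and 14.4, 14.8 and 14.4 in Large White libraries. All 3 Tibetan libraries were above the other 6, but Tibetan 1 was far above the others of its breed, and the gene was called against Wujin (limma adjusted p = 0.0188) and not against Large White (limma adjusted p = 0.0508) as deposited. The first call was lost without Wujin 1 (0.71), and the second was gained without Tibetan 2 (0.95) or Wujin 1 (0.65). CTSV, a relative of cathepsin L, was at 56.7, 60.4 and 42.9 FPKM in Tibetan, 35.6, 41.04 and 45.999 in Wujin and 72.8, 65.5 and 67.7 in Large White libraries. Reads of CTSV and CTSL may be hard to separate because the 2 proteins are close paralogs, so both levels are uncertain. CTSV was not called between Tibetan and Large White as deposited (limma adjusted p = 0.0502), was called lower without Tibetan 2 (−0.47) or Wujin 1 (−0.37), and turned to higher in the Tibetan breed after median-ratio scaling (0.59) but not after quantile normalization (−0.20). CTSS, known from antigen-presenting cells, was at 6.56, 8.15 and 5.09 FPKM in Tibetan, 4.85, 4.05 and 5.08 in Wujin and 6.63, 11.1 and 7.06 in Large White libraries, and CTSZ, a carboxypeptidase, at 32.6, 36.1 and 23.7 FPKM in Tibetan, 47.2, 32.3 and 36.7 in Wujin and 25.5, 24.7 and 23.4 in Large White libraries. Neither was called in any comparison as deposited. Both were called higher in Tibetan than in Large White after median-ratio scaling (0.59 and 1.24), CTSS only just (limma adjusted p = 0.0491). After quantile normalization CTSZ was called (0.70) and CTSS was not (0.51), and CTSZ was also called without Tibetan 3 (0.47). Between Tibetan and Wujin, CTSS was called higher in the Tibetan breed after median-ratio scaling (1.05) and quantile normalization (0.98), and CTSZ after neither. The 9 matched macrophage and monocyte markers summed to 34.8 to 79.8 FPKM in the Tibetan, 27.3 to 40.7 for Wujin and 42.4 to 63.2 for Large White. Of the 7 tested, 2 were called lower and none higher in the Tibetan than in the Large White breed as deposited, where 63.2% and 13% of all rows were called. After median-ratio scaling none was lower and 4 were higher, where 33% and 32.4% of all rows were called. The part of these markers in the cathepsin results was not tested.

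The 2 tested cystatins went in opposite directions. CSTB, the cytosolic inhibitor of cathepsins B, H and L, was at 97.1, 93.1 and 68.1 FPKM in Tibetan, 176, 167 and 171 in Wujin and 165, 165 and 164 in Large White libraries. Its Large White mean was 1.91 times the Tibetan mean (limma adjusted p = 2.22e-04), which is close to the shift of all rows, and after median-ratio scaling its change was 0.025 and not called, but it was called lower after quantile normalization (−0.89). CST6, the secreted cystatin E/M known from skin, was at 16.6, 42.3 and 21.6 FPKM in Tibetan, 0.920, 0.353 and 0.830 in Wujin and 0.187, 0.471 and 0.985 in Large White libraries. The Tibetan mean was 49.03 times the Large White mean, a log2 change of 4.09 ± 0.33 (SE; limma adjusted p = 4.43e-06). This relative change of 4.87 was the largest among the 53 members in either direction. CST6 passed the filter of 1 FPKM only through the Tibetan libraries, so its call is not independent of the filter. CST6 made up 23.1 ± 8.16% of the cystatin sum in the Tibetan libraries, against 0.405% in Wujin and 0.331% in the Large White. The ratio of the cystatin sum to the cathepsin sum was 0.514 ± 0.0990 in the Tibetan, 0.666 ± 0.0277 in Wujin and 0.563 ± 0.0183 in Large White libraries. Its Tibetan range of 0.450 to 0.628 overlapped the Large White range and ended below the lowest Wujin library, at 0.647. Without CSTB and CTSB the ratio was 0.186, 0.00553 and 0.00415.

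**Figure D4:**
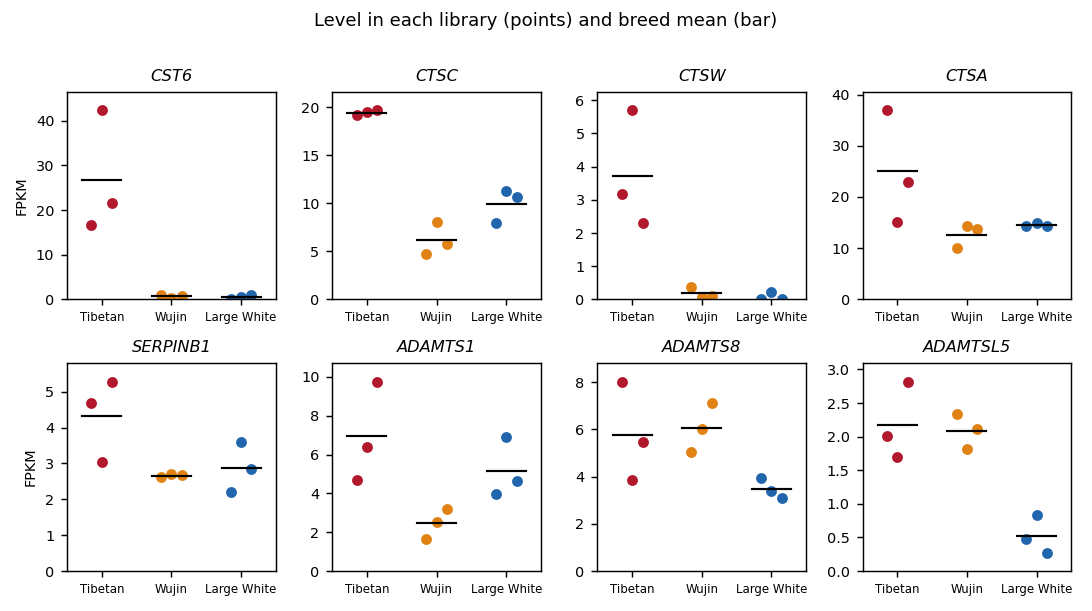
FPKM (linear axis from 0) of 8 members in each library (points) and the breed mean (bar, n = 3, left out where a library of the breed is listed at or next to 0). For CST6, CTSC, CTSW and CTSA all 3 Tibetan points lie above the other 6, for ADAMTSL5 the Tibetan and Wujin points lie above the Large White points, and for ADAMTS1, ADAMTS8 and SERPINB1 the Tibetan and Large White points overlap.

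Among the serpins, SERPINE2 stood far lower in the Tibetan libraries than in the others. SERPINE2, protease nexin 1, which blocks thrombin and urokinase, was at 1.89, 1.98 and 1.79 FPKM in Tibetan, 9.49, 16.4 and 14.3 in Wujin and 23.2, 19.7 and 20.9 in Large White libraries. The Tibetan libraries agreed closely with each other and lay below the other 6. The Large White mean was 11.3 times the Tibetan mean (log2 change −2.95 ± 0.18, limma adjusted p = 8.65e-07), and the direction held under each scaling.

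SERPINF1, SERPING1 and SERPINB1 differed less. SERPINF1, pigment epithelium-derived factor, a collagen-binding serpin without inhibitory action, was at 45.8, 68.1 and 74.7 FPKM in Tibetan, 89.8, 88.5 and 98.1 in Wujin and 101, 91.7 and 87.3 in Large White libraries. It was called lower in the Tibetan breed as deposited (limma adjusted p = 0.0122 against Large White) but had a positive change after median-ratio scaling (0.38) and a negative one after quantile normalization (−0.42), neither called. SERPING1, the C1 inhibitor of the complement cascade, was at 99.3, 73.4 and 55.7 FPKM in Tibetan, 148, 128 and 132 in Wujin and 100.4, 83.6 and 74.7 in Large White libraries. It was highest in the Wujin libraries and was called lower in the Tibetan than in the Wujin breed as deposited (−0.86 ± 0.20, limma adjusted p = 0.00432), a call kept after quantile normalization (−0.76) and lost after median-ratio scaling (−0.13). Between Tibetan and Large White it was not called as deposited (limma adjusted p = 0.376) or after quantile normalization (−0.048), but was called higher in the Tibetan breed after median-ratio scaling (0.76). SERPINB1, which inhibits neutrophil elastase inside cells, was at 4.69, 3.03 and 5.27, 2.62, 2.69 and 2.68 and 2.21, 3.59 and 2.85 FPKM in the Tibetan, Wujin and Large White libraries. As deposited it was called higher in the Tibetan than in the Wujin libraries (limma adjusted p = 0.0357), a call lost without Tibetan 1 (0.46), Tibetan 3 (0.39), Large White 3 or any of the Wujin libraries (0.51 to 0.52). After median-ratio scaling SERPINB1 was called higher in the Tibetan than in the Wujin (1.11) and Large White (1.21) libraries. The same held after quantile normalization (1.12 and 1.30).

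Between Wujin and Large White few members were called; this comparison shares the Large White libraries with the first. In it 2 of 53 members were called higher in the Wujin libraries and 4 lower, where 1.67% and 4.85% of all rows tested were called. The 2 higher were MMP23B (0.58 ± 0.13, limma adjusted p = 0.0367) and ADAMTSL5 (1.03 ± 0.18, limma adjusted p = 0.0256). The 4 lower were ADAM11 (−0.78 ± 0.13, limma adjusted p = 0.0217), ADAM22 (−0.75), ADAMTS19 (−0.73) and CTSV (−0.74). The libraries of the 2 breeds did not overlap for any of these 6. The calls were fragile: leaving out single libraries gave 0 to 2 higher and 0 to 6 lower members, with 0 higher without Wujin a, Large White 1 or Large White 3 and 1 without Tibetan 1, Tibetan 3, Wujin 1 or Large White 2. The lower count was 0 without Large White 2 or 3, 1 without Tibetan 1, Wujin a or Large White 1, and 2 without Tibetan 3. Libraries did not overlap for 12 members that were higher in Wujin (9.67% of all rows) and 15 that were lower (35.3% of all rows). Among the 12 were ADAMTS7, at 12.2, 12.7 and 12.4 against 9.22, 9.85 and 9.71 FPKM, and SERPING1, at 148, 128 and 132 against 100.4, 83.6 and 74.7, neither called (limma adjusted p = 0.0678 and 0.0730). After median-ratio scaling 4 members were higher and 1 lower (1.86% and 1.27% of all rows), and after quantile normalization 8 and 2 (4.18% and 3.59%).

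The spread within the Wujin breed touched many members. Wujin 1 was the lowest of the 3 Wujin libraries for 36 of 53 members (67.9%), about as often as over all rows tested (63.2%), while Wujin b was the lowest for 1 member against 20.3% of all rows. ADAM9 was at 1.96 FPKM in Wujin 1 against 4.79 and 4.89 in the others. The fibroblast marker sum had the same order, from 3094 FPKM in Wujin 1 to 4274 and 5610.3. Without Wujin b, 3 members were called lower in Wujin than in Large White that were not called with it, ADAM9 (−1.02), ADAMTS9 (−1.01) and ADAMTSL3 (−1.09).

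The comparison of Tibetan with Wujin gave a similar picture to that with Large White, and the 2 share the Tibetan libraries. There, 38 of 53 members were called lower in the Tibetan libraries and 7 higher, where 53.9% and 13.8% of all rows tested were called. After median-ratio scaling the split was 27 lower and 14 higher (30.4% and 30.9% of all rows), and after quantile normalization 31 and 14 (29.7% and 29.6%). MMP14 (−3.99 ± 0.14, limma adjusted p = 8.72e-08), MMP23B (−3.66), ADAMTS7 (−3.37) and MMP2 (−3.31) had the most negative log2 changes. The 7 higher members included CST6 (3.94 ± 0.33, limma adjusted p = 7.17e-06), CTSW, CTSC (1.54), ADAMTS1 (1.17), CTSA (0.86) and SERPINB1 (0.52). Breed means ran Tibetan below Wujin below Large White for 24 of 53 members (45.3%, against 53.2% of all rows). They ran Tibetan below Large White below Wujin for 15 members (28.3%, against 18.3% of all rows), MMP2, MMP14, MMP23B, TIMP1 and CSTB among them.

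The direction of the middle of the list depended on how the libraries were put on a common scale. Of the 37 members called lower in Tibetan than in Large White, 11 were not called lower after median-ratio scaling: ADAM9, ADAM17, ADAM23, ADAMTS4, ADAMTS5, ADAMTSL4, CSTB, CTSB, MMP11, SERPINF1 and MMP15, of which the last was called higher. The 6 members called higher as deposited, ADAMTS8, ADAMTSL5, CST6, CTSC and CTSW among them, were all called higher after median-ratio scaling as well. The members added to the higher group by that scaling were CTSA, CTSS, CTSV, CTSZ, SERPINB1, SERPING1, MMP15, MMP19, ADAM15, ADAMTS1 and ADAMTSL2.

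**Figure D5:**
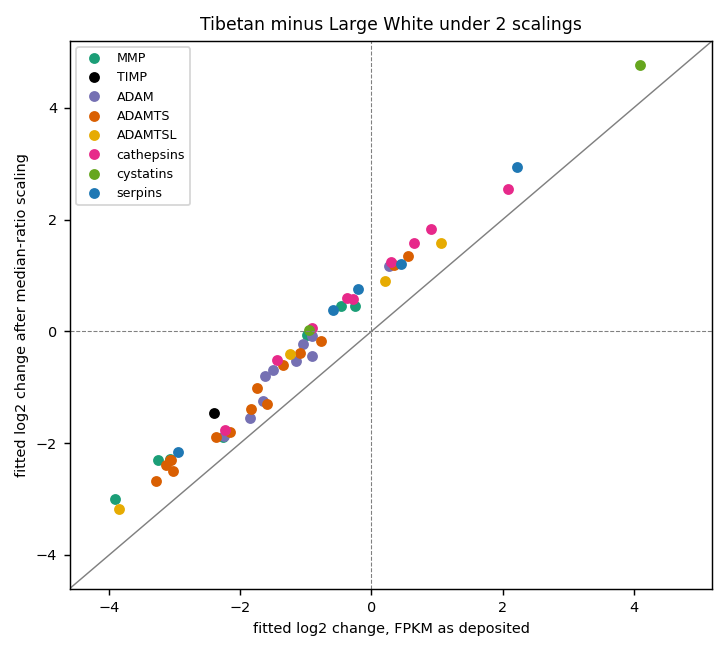
Fitted log2 change of Tibetan minus Large White for the 53 tested members on FPKM as deposited (x) and after median-ratio scaling (y), coloured by family; the line marks equal values. All points lie above the line, most by about the median shift of all rows, so members near −0.77 on the x axis fall near 0 on the y axis while MMP14 (−3.91 and −3.01) and CST6 (4.09 and 4.76) keep their side.

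Other genes of the same pathways were counted from lists that leave out the members themselves. Counts are for Tibetan minus Large White and are read against the 63.2% lower and 13% higher of all rows as deposited. Counts given as after scaling are those after median-ratio scaling, when 33% of all rows were lower and 32.4% higher. Of 12 tested matrix substrates, the collagens, proteoglycans and glycoproteins that these enzymes cut, 12 were lower as deposited and 11 after median-ratio scaling, with a median relative log2 change of −2.98. Versican (VCAN), a substrate of several ADAMTS enzymes, was at 1.25, 1.29 and 0.982 FPKM in the Tibetan, 54.4, 77.2 and 77.1 in Wujin and 114, 132 and 134 in Large White libraries. COL1A2, a chain of type I collagen, had a relative change of −4.07. Of 13 other secreted and matrix proteases 9 were lower and 2 higher (9 and 4 after scaling); PCOLCE, which enhances removal of the carboxyl propeptide of procollagen, was at 50.5, 57.3 and 54.8 FPKM in the Tibetan and 258, 229 and 227 in the Large White libraries, and the serine protease HTRA3 at 16.9, 15.8 and 15.5 and 68.8, 59.5 and 62.97. Of 13 activators and membrane regulators of metalloproteinases 9 were lower and 1 higher (5 and 3 after scaling). RECK, a membrane-anchored inhibitor of MMPs, was at 0.688, 0.472 and 0.801 FPKM in the Tibetan and 12.97, 14.5 and 13.4 in the Large White libraries, and the proteoglycan syndecan-1 (SDC1) at 0.212, 0.257 and 0.233 and 12.3, 10.7 and 18.6.

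Of 4 tested plasminogen genes, among them targets of SERPINE2 and their partners, 3 were lower and 1 higher (2 and 1 after scaling). The urokinase gene PLAU was at 5.63, 4.25 and 4.82 FPKM in the Tibetan and 19.3, 15.9 and 14.6 in the Large White libraries, and ANXA2, a cell surface receptor for plasminogen, at 82.6, 81.8 and 70.8 and 396, 403 and 361. The tissue activator PLAT, chosen after its values were seen, was the 1 that was higher, at 5.09, 3.57 and 5.29 and 1.72, 2.82 and 2.20 FPKM (limma adjusted p = 0.00254). Of 13 other protease inhibitors 6 were lower and 3 higher (6 and 6 after scaling). KAZALD1 was at 0.250, 0.322 and 0.358 FPKM in the Tibetan and 10.4, 8.45 and 9.18 in the Large White libraries, and SPOCK3, a testican, was listed at 0 in Tibetan 1 and Tibetan 3 and at 0.0681 in Tibetan 2, against 6.78, 5.54 and 6.26. Of 18 other lysosomal genes 13 were lower and 1 higher as deposited, but 5 and 6 after scaling. The protease legumain (LGMN) was at 13.3, 13.95 and 13.6 FPKM against 41.7, 40.5 and 40.9. Of 8 calpains, the calcium-dependent proteases of the cytosol, 6 were lower and 1 higher (2 and 4 after scaling), with CAPN6 at 12.5, 14.2 and 11.5 against 280.0, 228 and 262 FPKM and CAPN5 at 1.37, 1.17 and 1.13 against 13.5, 15.3 and 19.6. Of 9 AP-1 and ETS factors and inducing cytokines 5 were lower and 2 higher (2 and 4 after scaling), with the growth factor TGFB3 at 1.31, 1.13 and 1.87 against 17.8, 14.7 and 20.4 FPKM and JUNB, an AP-1 transcription factor, at 21.8, 30.3 and 26.2 against 3.12, 3.58 and 2.38.

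Of the 32 members below the filter, 28 reached 1 FPKM in no library, 13 were serpins of the 18 in the table, and the values just inside and outside the filter were means of 1.03 FPKM for ADAMTS19 and 0.971 for CTSL. The 4 that reached 1 FPKM somewhere were ADAM8, CTSL, CST7 and SERPIND1. ADAM8, known from leukocytes, was at 5.06, 0.906 and 0.685 FPKM in the Tibetan, 0.253, 0.164 and 0.684 in Wujin and 0.392, 0.285 and 0.218 in Large White libraries, so its level rests on Tibetan 1. CTSL was at 1.76, 1.98 and 0.281 FPKM in Tibetan, 1.60, 1.005 and 1.21 in Wujin and 0.229, 0.538 and 0.147 in Large White libraries. CST7, cystatin F of immune cells, was at 0.593, 2.12 and 0.174 FPKM in the Tibetan libraries and at most 0.176 elsewhere. SERPIND1 and SERPINC1, heparin cofactor II and antithrombin, are made by liver. They were at 1.05 and 0.811 FPKM in Tibetan 1, and SERPINC1 was next highest at 0.651 and 0.479 in Large White 3 and Large White 2. The 10 matched liver and plasma protein markers summed to 78.3, 35.7 and 15.6 FPKM in the Tibetan libraries, 69.7 to 86.8 for Wujin and 71.7, 135 and 155 for Large White. Tibetan 1 was thus highest of all libraries for both serpins but not for the marker sum. The part of such RNA in the liver serpins was not tested. SERPINI1, neuroserpin, stayed at or below 0.182 FPKM.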

How the data were processed

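Gene levels were measured by RNA sequencing of total RNA in 9 libraries, 3 for each breed; libraries were built with the TruSeq RNA kit, per the labels' protocols. The authors deposited 1 table of FPKM for all samples, per the file headers. The aligner was TopHat, per the submitters' processing notes; the sources used here give no version, genome build or FPKM tool, so no positions or sequences are printed. Symbols came from a table of gene names by identifier; 82 of the 85 members were also found by symbol in RefSeq, which was used only for neighbours. FPKM are not counts, so no counting interval can be given, and relative depth was estimated from steps between values below 0.2 FPKM.

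Rows with a mean of at least 1 FPKM were tested on log2(FPKM + 1) with limma 3.58.1 in R 4.3.3 (3 breed means fitted to 9 libraries, empirical Bayes with a trend, Benjamini-Hochberg over 13106 rows, called at adjusted p under 0.05). This scale understates changes of low genes. SDs and ratios of means are on FPKM. The fit was tested on simulated data. Replicate numbers shared by Tibetan and Large White libraries were not taken as pairs in the main fit. Deviations of same-numbered libraries correlated at 0.013, −0.0226 and −0.076, and those of differently numbered libraries at −0.111 to 0.125. With so few libraries these correlations cannot exclude a pairing. Each of these was tried instead: a pseudocount of 0.1 or 5, a minimum mean of 5 FPKM or none, median-ratio and quantile scaling, only the 6 libraries compared, a replicate block and leaving out each library.

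Members and lists were chosen with earlier results of these data known. A rule named 40 members: in each pair of breeds, the 8 of largest relative change among those called with no overlap, the 3 highest of each family, 22 matched of 30 key members, and up to 6 of at least 5 FPKM called nowhere, of which there were 3. Of each pathway list it took 2 genes of smallest p. A member and a lysosomal gene that the rule named are not reported here. The other members and the cell markers were named after their values were seen.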

Additional observations from a re-analysis of the deposited data

How the results depend on the processing

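The pseudocount of 0.1 changed no member's call in either Tibetan comparison. For Tibetan minus Large White, median-ratio scaling gave 17 members higher, quantile normalization 13, and a minimum mean of 5 FPKM, which left 31 members to test, 3 higher and 22 lower. For Wujin minus Large White, the counts higher and lower were 1 and 1 with a pseudocount of 0.1, 4 and 9 with a pseudocount of 5, 1 and 1 with the 5 FPKM minimum, 4 and 1 after median-ratio scaling and 8 and 2 after quantile normalization, and only 2 were lower with the 6 libraries compared. For Tibetan minus Wujin, they were 3 and 23 with the 5 FPKM minimum, and 14 were higher under either scaling. The lower counts at 5 FPKM come with fewer members tested; for the other changes the cause was not tested. Without the highest member of each family, the ratio of TIMP1 to the MMP sum was 0.566 in the Tibetan, 0.689 in the Wujin and 0.612 in the Large White libraries, and that of cystatins to cathepsins 0.186, 0.00553 and 0.00415. Leaving out single libraries gave 5 to 9 higher and 36 to 38 lower members for Tibetan minus Large White, 0 to 2 and 0 to 6 for Wujin minus Large White, and 5 to 8 and 35 to 39 for Tibetan minus Wujin. It moved the TIMP1 ratio over 0.255 to 0.337, 0.217 to 0.295 and 0.207 to 0.222 in the Tibetan, Wujin and Large White libraries, and the cystatin ratio over 0.457 to 0.546, 0.651 to 0.676 and 0.553 to 0.571. Signs turned between Tibetan and Large White after median-ratio scaling for CSTB (0.025), CTSB (0.057), CTSS (0.59), CTSV (0.59), MMP15 (0.45), MMP19 (0.45), SERPINF1 (0.38) and SERPING1 (0.76), and after quantile normalization for ADAM23 (0.041), ADAMTS5 (0.13), CTSS (0.51), MMP15 (0.15) and MMP19 (0.62). Between Tibetan and Wujin they turned after median-ratio scaling for ADAM9 (0.55), ADAMTS8 (0.54), CTSZ (0.39) and SERPINF1 (0.16), and after quantile normalization for ADAM9 (0.56), ADAMTS5 (0.072) and ADAMTS8 (0.48). Between Wujin and Large White 9 signs turned after median-ratio scaling and 10 after quantile normalization, all of uncalled members. With the replicate number as a block, Tibetan minus Large White still gave 6 members higher and 37 lower, and the block changed no other call. No paired analysis was possible for the Wujin comparisons because 2 of the 3 Wujin columns carry no number. Depth limits the members below 1 FPKM, for which no test was made.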

Other observations

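Beyond the members, 2 protease inhibitors of other families stood out by library or breed; both were chosen after their values were seen. A2M, alpha-2-macroglobulin, which traps proteases of every class, was at 192 FPKM in Tibetan 1 and at 0.394 FPKM or less in the other 8 libraries, so its level in the Tibetan breed rests on 1 library. ITIH4, an inter-alpha-trypsin inhibitor chain, was at 13.2, 6.46 and 7.11 FPKM in the Tibetan libraries and at 0.400 FPKM or less in the Wujin and Large White libraries (relative log2 change 3.67, limma adjusted p = 4.35e-06). It passed the filter of 1 FPKM only through the Tibetan libraries, so this call is not independent of the filter.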
